A study of Homo sapiens with 10 samples.

Results

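The 9 genes HLA-B, HLA-C, HLA-E, HLA-F, B2M, TAP1, TAP2, PSMB8 and PSMB9 encode parts of the pathway that loads peptides onto HLA class I molecules, and they were picked by symbol out of 61587 rows of a gene count table. Each symbol matched 1 row, and all 9 passed the minimum of 200 counts summed over the samples, as 19006 genes of the table did. The table holds bulk RNA-seq of RPTEC/TERT1 cells, a line of human proximal tubular epithelial cells immortalised with telomerase. It covers 5 samples that received 10 Gy of gamma radiation from a caesium source and 5 mock-irradiated control samples, all collected on day 7. Both groups were taken as RPTEC/TERT1, the only line the authors name for this experiment, although the sample labels give the line a different number in each sample. No other agent or genetic change is named between the groups, and replicates are numbered 1 to 5 in each. One immortalised line grown without immune or stromal cells limits the groups as a model of irradiated kidney. The comparison of irradiated with control samples asks how the pathway's transcripts stood a week after a damaging dose.

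HLA class I molecules display peptides from inside the cell to cytotoxic T cells and natural killer cells. The proteasome cuts proteins into peptides, the TAP transporter carries these into the endoplasmic reticulum, and loading factors there fit them onto a heavy chain paired with beta-2-microglobulin. In tubular epithelium, as in most nucleated cells, the pathway is active at rest and is raised by interferons and NF-κB, with NLRC5 as the main transactivator of its promoters.

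Transcripts of the peptide transporter rose after irradiation, TAP1 from 62.0 ± 11.5 to 100.1 ± 8.19 CPM (counts on the gene scaled to the library's total after TMM normalisation, mean ± SD, n = 5 per group) and TAP2 from 19.0 ± 1.79 to 26.1 ± 2.77 CPM. The heavy chain gene HLA-B rose from 614 ± 146 to 740 ± 102 CPM, and PSMB8, a catalytic subunit of the immunoproteasome, fell from 76.7 ± 5.15 to 68.1 ± 4.74 CPM. HLA-C, HLA-E, HLA-F, B2M and PSMB9 did not pass the test. In all, 3 of the 9 genes were called higher, where 23.9% of all tested genes were, and 1 was called lower, where 22.7% were, by edgeR's quasi-likelihood test with the replicate number as a block and a Benjamini-Hochberg adjusted p-value under 0.05 over all genes tested. Against that background, these counts do not show that the 9 genes were called more often than others. The median log2 fold change (irradiated over control) was 0.04 over the 9 genes and -0.01 over all genes tested. Groups did not overlap for 2 of the 9 genes, TAP1 and TAP2, both higher, where 14.6% of all genes lay apart in that direction, and for 0 in the lower direction, where 12% did.

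The promoters of the genes are shown first, since regulation of this pathway is usually described through a few short elements in them. Sequences are the 250 bases before the RefSeq start on the gene's own strand, 5′ to 3′, from GRCh38.p14, and are the reference, not the alleles of this cell line. Windows were found for 8 of the 9 genes, and TAP1 and PSMB8 have 2 each. Those of HLA-B and HLA-C are set side by side as close neighbours in sequence, of which HLA-B was called and HLA-C was not. TAP1 and PSMB9 are set together because they sit head to head, and TAP2 and B2M because TAP2 rose and B2M did not pass. A different change in HLA-B and HLA-C was not shown, since the ratio of their counts did not pass. Whether TAP2 and B2M differ in their change was not tested, nor was any link between a match and a call. Capitals mark matches, on either strand, to GAAA, any 2 bases and GAAA, or to GAAGTGAAA (both letters of the interferon-stimulated response element), to GGGG, any base and TTCCC, or GGGA, any base and TTTCC (2 forms of κB letters), and to TGACG (part of the cyclic AMP response element) and ATTGG (the CCAAT box). Overlapping matches run together.
HLA-B, chr6:31357180-31357429, minus strand: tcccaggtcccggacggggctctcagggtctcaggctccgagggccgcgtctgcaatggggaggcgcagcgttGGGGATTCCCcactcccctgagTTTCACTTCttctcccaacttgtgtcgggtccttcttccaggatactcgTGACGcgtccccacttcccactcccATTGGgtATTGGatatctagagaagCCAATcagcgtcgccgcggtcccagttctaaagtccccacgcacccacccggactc
HLA-C, chr6:31272093-31272342, minus strand: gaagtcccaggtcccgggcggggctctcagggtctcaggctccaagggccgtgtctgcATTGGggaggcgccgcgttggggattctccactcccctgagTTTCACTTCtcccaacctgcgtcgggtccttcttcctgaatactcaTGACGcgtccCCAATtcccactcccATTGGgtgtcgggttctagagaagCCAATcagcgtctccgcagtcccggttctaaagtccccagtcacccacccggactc
TAP1, chr6:32853705-32853954, minus strand: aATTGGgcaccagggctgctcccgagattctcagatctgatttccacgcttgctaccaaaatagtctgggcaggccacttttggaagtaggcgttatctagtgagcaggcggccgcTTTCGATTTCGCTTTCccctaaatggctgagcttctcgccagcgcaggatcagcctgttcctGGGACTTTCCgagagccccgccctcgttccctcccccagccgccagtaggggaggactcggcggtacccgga
PSMB9, chr6:32853942-32854191, plus strand: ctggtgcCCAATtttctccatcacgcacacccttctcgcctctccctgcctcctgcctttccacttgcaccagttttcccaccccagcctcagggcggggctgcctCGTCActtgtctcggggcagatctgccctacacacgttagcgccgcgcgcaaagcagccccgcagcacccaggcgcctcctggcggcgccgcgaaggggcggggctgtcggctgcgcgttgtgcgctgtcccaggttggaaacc
TAP2, chr6:32838740-32838989, minus strand: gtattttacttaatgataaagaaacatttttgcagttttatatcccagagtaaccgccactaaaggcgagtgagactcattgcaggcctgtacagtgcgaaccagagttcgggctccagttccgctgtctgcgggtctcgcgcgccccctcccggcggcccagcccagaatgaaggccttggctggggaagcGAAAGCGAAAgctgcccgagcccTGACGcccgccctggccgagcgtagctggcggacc
B2M, chr15:44711267-44711516, plus strand: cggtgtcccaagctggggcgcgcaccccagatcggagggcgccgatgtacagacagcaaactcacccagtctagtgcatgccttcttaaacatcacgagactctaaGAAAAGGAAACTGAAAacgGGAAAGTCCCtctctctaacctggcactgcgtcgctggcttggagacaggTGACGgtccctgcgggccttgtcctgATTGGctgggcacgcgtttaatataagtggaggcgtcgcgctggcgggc

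The windows of HLA-B and HLA-C were 89.0% identical over 254 aligned columns. The first κB form was found in HLA-B (GGGGATTCCC) and in none of the other 7 of the 8 genes, at -177 to -168 from the start, and in 0.635% of 35116 promoter windows of the same length. Counted from 1 at the first base of that match, the aligned letters of HLA-C differ by C9T, and those of HLA-F by G2A and G4A. GAAGTGAAA, which was added to the search after the sequence of HLA-B had been read, lay in HLA-B and HLA-C and in 0.439% of all windows. The GAAA repeat was found in 4 of the 8 genes (HLA-F, TAP1, TAP2 and B2M) and in 3.02% of all windows, and TAP1 and B2M each held 2 overlapping copies. The second κB form lay in TAP1 and B2M and in 0.527% of windows. The RefSeq starts of TAP1 and PSMB9 lie 487 bases apart on opposite strands. The PSMB9 window held TGACG and a CCAAT box but none of the interferon or κB letters. The GAAA repeats and the κB match of TAP1 lie between these starts. They are therefore also upstream of PSMB9, beyond the far end of its window. TGACG was in 6 of the 8 genes (6 of their 10 windows) and 21.2% of all windows. ATTGG was in 6 of the 8 (6 of 10 windows) and 32% of all windows, and the palindrome TGACGTCA in 0 of the 8 and 1.65%. The ATTGG of TAP1 and the CCAAT box of PSMB9 are the same bases, since these 2 windows overlap at their far ends. A match is a description of the letters, and absence says only that these letters are not in this window.

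Library totals ran from 78081911 to 131555873 counts for controls and from 66269311 to 101594948 counts for irradiated samples, and TMM factors ran from 0.915 to 1.06. Of all genes tested, 4550 were called higher and 4307 lower; with library size alone as the scale the calls were 3609 and 5894, and that scale moved the median log2 fold change of all genes from -0.0098 to -0.0859. Control replicate 3 was the highest control for 8 of the 9 genes. The share of all tested genes for which it was highest was not counted. It also lay at an end of the controls for genes outside the 9. The epithelial marker EPCAM was highest in it, at 365.2 CPM against 252.9 to 285.7 CPM. The chaperone gene CALR was lowest in it, at 742.7 CPM against 978 to 1231 CPM. The cells carried tubular epithelial transcripts, with summed CPM over 10 listed markers, mostly from KRT8, KRT19 and PAX8, of 3022 to 3484 in control and 3068 to 4001 in irradiated samples. Of the 9 tested, KRT19 was called higher (log2 fold change 0.69) and CDH1 (-0.18), PAX2 (-0.27) and AQP1 (-0.61) were called lower. The proximal tubule markers of the list were low, with CUBN at 4.37 and 4.76 CPM and AQP1 at 1.82 and 1.19 CPM in control and irradiated samples. Of the exons of AQP1, 27.9% are shared with the same strand's other genes, against 0% for CUBN, and reads lost to this were not measured. The proximal tubule receptor LRP2 had 17 counts in all samples together. Leukocyte markers were near 0, with sums over 10 listed genes of 0.757 to 1.09 CPM in control and 1.99 to 2.69 CPM in irradiated samples, and CD3E and MS4A1 had 3 counts each in all. Of the 3 tested, ITGAM (0.0436 to 1.24 CPM) and CD14 (0.268 to 0.570 CPM) were called higher and the pan-leukocyte PTPRC (0.295 to 0.353 CPM, adjusted p = 0.283 in edgeR) was not. The 5 endothelial markers summed to 1.27 to 2.54 CPM in control and 4.23 to 5.57 CPM in irradiated samples (2 of 3 called higher). The 6 fibroblast markers summed to 16.3 to 24.6 and 28.4 to 37.6 CPM (2 of 2 called higher). That sum came mostly from COL1A1, with means of 18.8 and 32.15 CPM, while DCN had 0.315 and 1.75 CPM. PDGFRA, PDGFRB, COL1A2 and LUM were under the minimum, with 103, 49, 23 and 2 counts in all. Of all tested genes 23.9% were called higher. The part of these markers in the results was not tested. In bulk RNA, fewer cells expressing a gene and less RNA per cell cannot be told apart.

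**Figure D1:**
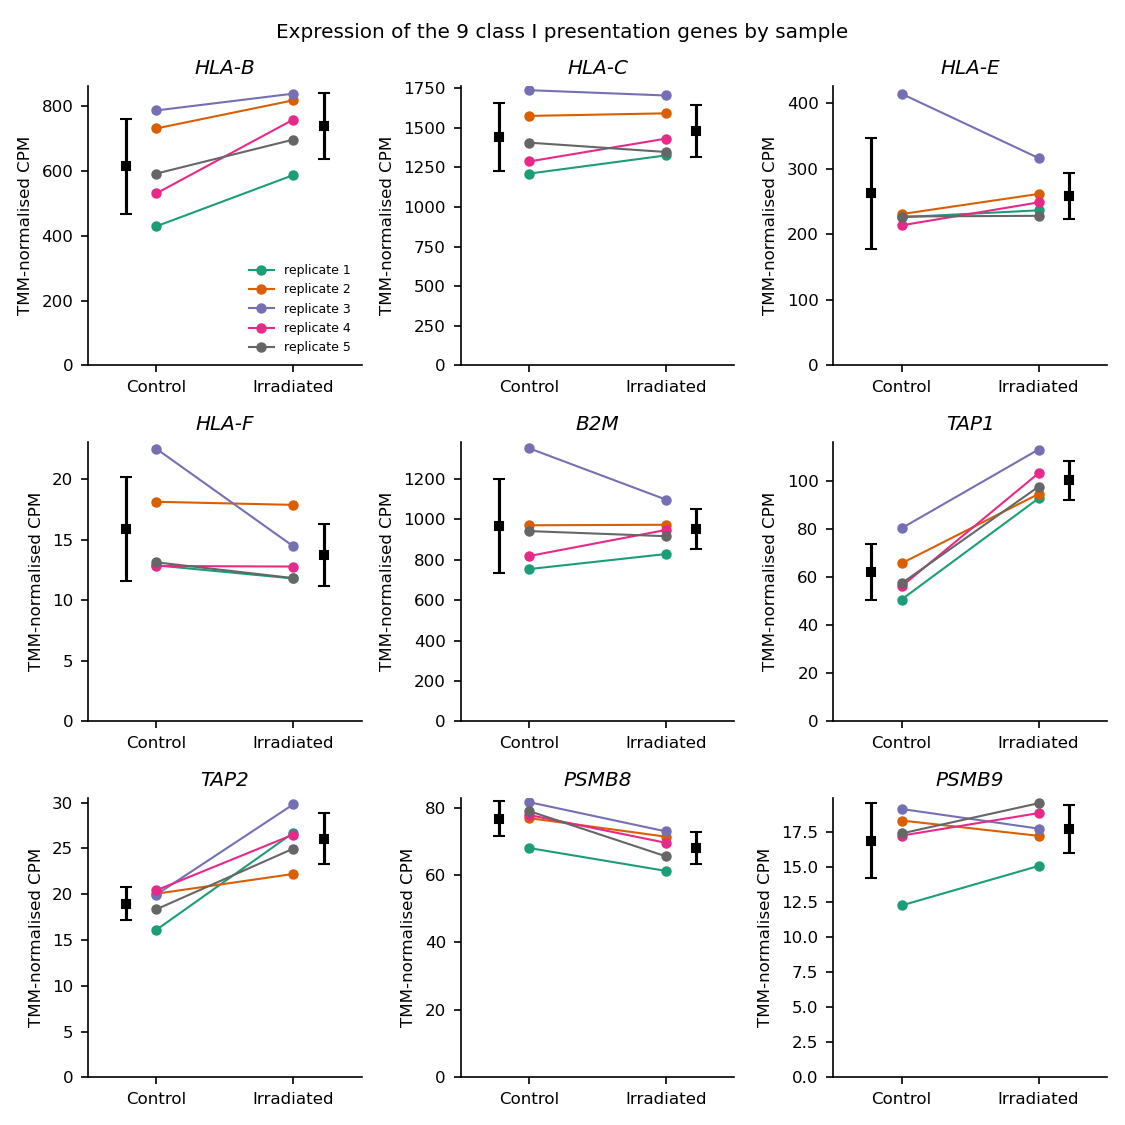
TMM-normalised CPM of the 9 genes in control and irradiated samples, with lines joining samples of the same replicate number and black squares with bars giving the mean ± SD of 5 samples. Every line rises for TAP1, TAP2 and HLA-B and every line falls for PSMB8, and only TAP1 and TAP2 have groups that do not overlap.

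TAP1 and TAP2 encode the chains of the transporter that pumps peptides from the cytosol into the endoplasmic reticulum. TAP1 (ENSG00000168394, chromosome 6, 32845209 to 32853816, minus strand in GRCh38) stood at 50.6, 65.7, 80.2, 56.1 and 57.3 CPM in control replicates 1 to 5 and at 92.6, 94.4, 112.9, 103.1 and 97.5 CPM in irradiated replicates 1 to 5. The lowest irradiated sample lay above the highest control, replicate 3. The log2 fold change was 0.71 ± 0.070 (SE; edgeR adjusted p = 0.000194), higher in 5 of 5 pairs. Of its exons, 14.2% lie under PSMB8-AS1 on the opposite strand, which had 1399 counts against 78275 for TAP1.

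TAP2 (ENSG00000204267, 32821833 to 32838739, minus strand) stood at 16.1, 20.1, 19.97, 20.4 and 18.4 CPM in control replicates 1 to 5 and at 26.7, 22.2, 29.8, 26.5 and 25.0 CPM in irradiated replicates 1 to 5. The groups did not overlap, irradiated replicate 2 being the lowest of its group. TAP2 thus rose by 0.46 ± 0.083 on the log2 scale (SE; edgeR adjusted p = 0.00318), higher in 5 of 5 pairs. A readthrough gene of the same strand covers 19.5% of its exons and had 3 counts in all samples. Within samples, the ratio of TAP1 to TAP2 counts was higher after irradiation by 0.25 on the log2 scale (exact permutation test over the 10 samples, two-sided, p = 0.0476, adjusted p = 0.114 over 12 ratios), and so did not pass.

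The heavy chains HLA-B and HLA-C are classical class I molecules that present peptides to T cells, and HLA-C is also a main ligand of killer-cell receptors. HLA-B (ENSG00000234745, 31353872 to 31367067, minus strand) stood at 429.7, 731.8, 787.3, 531.3 and 592.4 CPM in control replicates 1 to 5. In irradiated replicates 1 to 5 it stood at 587.8, 818.6, 839.2, 759.3 and 697.3 CPM. The groups overlapped, replicate 1 being the lowest and replicate 3 the highest of each, and all 5 pairs were higher after irradiation. The log2 fold change was 0.29 ± 0.074 (SE; edgeR adjusted p = 0.0140). This call rests on the pairing: without the replicate block the log2 fold change was 0.27 with an edgeR adjusted p of 0.206. It was also lost without replicate 1 (adjusted p = 0.0549) and without replicate 4 (adjusted p = 0.0548).

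HLA-C (ENSG00000204525, 31268749 to 31272130, minus strand) stood at 1210, 1574, 1737, 1287 and 1406 CPM in control replicates 1 to 5 and at 1325, 1591, 1703, 1431 and 1347 CPM in irradiated replicates 1 to 5. The irradiated values lay inside the control range, and 3 of 5 pairs were higher. Its fitted log2 fold change was 0.04 ± 0.058 (SE; edgeR adjusted p = 0.584), and it turned to -0.03 with library size alone as the scale. The log2 ratio of HLA-B to HLA-C within a sample was -1.25 ± 0.152 in control and -1.003 ± 0.102 in irradiated samples, a difference of 0.25 that was positive in 5 of 5 pairs (exact permutation p = 0.0238, adjusted p = 0.0714 over 12 ratios, two-sided). The permutation test does not use the pairing on which the HLA-B call rests. Sign flips within the 5 pairs cannot give a p under 0.0625. The different calls of HLA-B and HLA-C are therefore not shown to be a difference between them, and neither test excludes one. The authors counted uniquely mapped reads only, so reads shared by heavy chain genes were left out, and how far the cell line's alleles match the reference was not tested. Exons of other genes overlap 47.3% of HLA-B exons, with 22 counts on all of those genes together, and 0% of HLA-C exons.

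HLA-E and HLA-F are non-classical heavy chains, HLA-E being the ligand of the inhibitory NKG2A receptor of natural killer cells. HLA-E (ENSG00000204592, 30489509 to 30494194, plus strand) stood at 226.3, 231.1, 414.8, 213.9 and 227.4 CPM in control replicates 1 to 5 and at 236.8, 261.9, 316.7, 248.9 and 228.5 CPM in irradiated replicates 1 to 5. Control replicate 3 was far above every other sample, and the other 4 pairs were higher after irradiation. The log2 fold change was 0.02 ± 0.087 (SE; edgeR adjusted p = 0.891), and 0.12 without replicate 3 (adjusted p = 0.0776). Its sign was negative with upper-quartile scaling and with library size alone.

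HLA-F (ENSG00000204642, 29722775 to 29738528, plus strand) stood at 12.9, 18.1, 22.5, 12.8 and 13.1 CPM in control replicates 1 to 5 and at 11.8, 17.9, 14.4, 12.8 and 11.8 CPM in irradiated replicates 1 to 5. All 5 pairs were lower after irradiation, with log2 ratios of -0.02 and -0.01 in replicates 2 and 4, and the groups overlapped. The fit gave HLA-F a log2 fold change of -0.19 ± 0.098 (SE; edgeR adjusted p = 0.150), and -0.07 without replicate 3. Genes of the opposite strand cover 28.0% of its exons, among them HLA-F-AS1 with 2759 counts against 14713 for HLA-F.

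B2M encodes beta-2-microglobulin, the light chain that every class I heavy chain needs to reach the cell surface. B2M (ENSG00000166710, chromosome 15, 44711358 to 44718851, plus strand) stood at 754.0, 970.8, 1352, 818.4 and 942.1 CPM in control replicates 1 to 5 and at 828.6, 973.4, 1098, 947.8 and 916.7 CPM in irradiated replicates 1 to 5. Control replicate 3 was again the highest sample, and the irradiated values lay inside the control range. For B2M the log2 fold change was 0.0025 ± 0.079 (SE; edgeR adjusted p = 0.982), with a sign that changed between scalings. The log2 ratio of HLA-B to B2M within a sample was higher by 0.29 after irradiation, in 5 of 5 pairs (exact permutation p = 0.0159, two-sided), but the p adjusted over 12 ratios was 0.0635 and did not pass. The same ratio differed by 0.04 for HLA-C (exact permutation adjusted p = 0.745), 0.01 for HLA-E (0.881) and -0.19 for HLA-F (0.201). It was higher after irradiation in 2, 3 and 0 of 5 pairs in that order.

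PSMB8 and PSMB9 encode catalytic subunits that take the place of PSMB5 and PSMB6 in the immunoproteasome and favour peptide ends that fit class I molecules. PSMB8 (ENSG00000204264, 32840717 to 32844679, minus strand) stood at 68.0, 76.9, 81.6, 77.8 and 79.0 CPM in control replicates 1 to 5 and at 61.2, 71.4, 72.9, 69.5 and 65.5 CPM in irradiated replicates 1 to 5. Control replicate 1 was the lowest control and lay inside the irradiated range, so the groups overlapped, but all 5 pairs were lower after irradiation. PSMB8 changed by -0.17 ± 0.040 on the log2 scale (SE; edgeR adjusted p = 0.00995). The call was lost without the replicate block (adjusted p = 0.0595) and without replicate 5 (adjusted p = 0.0551). PSMB8-AS1 and PSMB9 lie opposite to PSMB8, and 17.3% of its exons are shared with the opposite strand.

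PSMB9 (ENSG00000240065, 32844136 to 32859851, plus strand) stood at 12.3, 18.3, 19.1, 17.2 and 17.4 CPM in control replicates 1 to 5 and at 15.1, 17.2, 17.7, 18.8 and 19.5 CPM in irradiated replicates 1 to 5. Replicate 1 was the lowest in each group and the groups overlapped, with 3 of 5 pairs higher. Its fitted log2 fold change was 0.08 ± 0.073 (SE; edgeR adjusted p = 0.409). Although TAP1 and PSMB9 start on opposite strands of the same short stretch, the log2 ratio of TAP1 to PSMB9 counts went from 2.05, 1.84, 2.07, 1.70 and 1.72 in control replicates 1 to 5 to 2.62, 2.46, 2.67, 2.45 and 2.32 in irradiated replicates 1 to 5. The groups did not overlap, and the difference of 0.63 had an exact permutation p of 0.00794, the smallest this test can give with 5 samples a group, and an adjusted p of 0.0476 over 12 ratios (two-sided, higher in 5 of 5 pairs).

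The log2 ratio of PSMB9 to PSMB8 was -2.20 ± 0.161 in control and -1.95 ± 0.132 in irradiated samples, a difference of 0.25 with the same exact permutation p of 0.00794 and adjusted p of 0.0476 (higher in 5 of 5 pairs). The lowest irradiated value, -2.05, lay just above the highest control value, -2.07. TAP1 to PSMB9 and PSMB9 to PSMB8 were the 2 of the 12 ratios to pass, and neither passed when signs were flipped within the 5 pairs, where the smallest p is 0.0625. The 2 passes are not independent. Both ratios hold PSMB9, which stood apart from the other controls in control replicate 1, at 12.26 CPM. With 12 ratios, 1 ratio alone at the smallest permutation p would not have passed. Against the constitutive subunits they replace, the ratio of PSMB8 to PSMB5 differed by -0.13 (exact permutation adjusted p = 0.201, higher in 0 of 5 pairs). That of PSMB9 to PSMB6 differed by 0.20 (adjusted p = 0.190, higher in 3 of 5 pairs). Neither of these ratios passed. Nor did the ratio of PSMB10, the remaining immunoproteasome subunit, to PSMB7, at -0.19 (exact permutation adjusted p = 0.190, higher in 1 of 5 pairs). Other genes of the same strand overlap 39.4% of PSMB10 exons and 0% of PSMB7 exons, and reads lost to this were not measured.

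**Figure D2:**
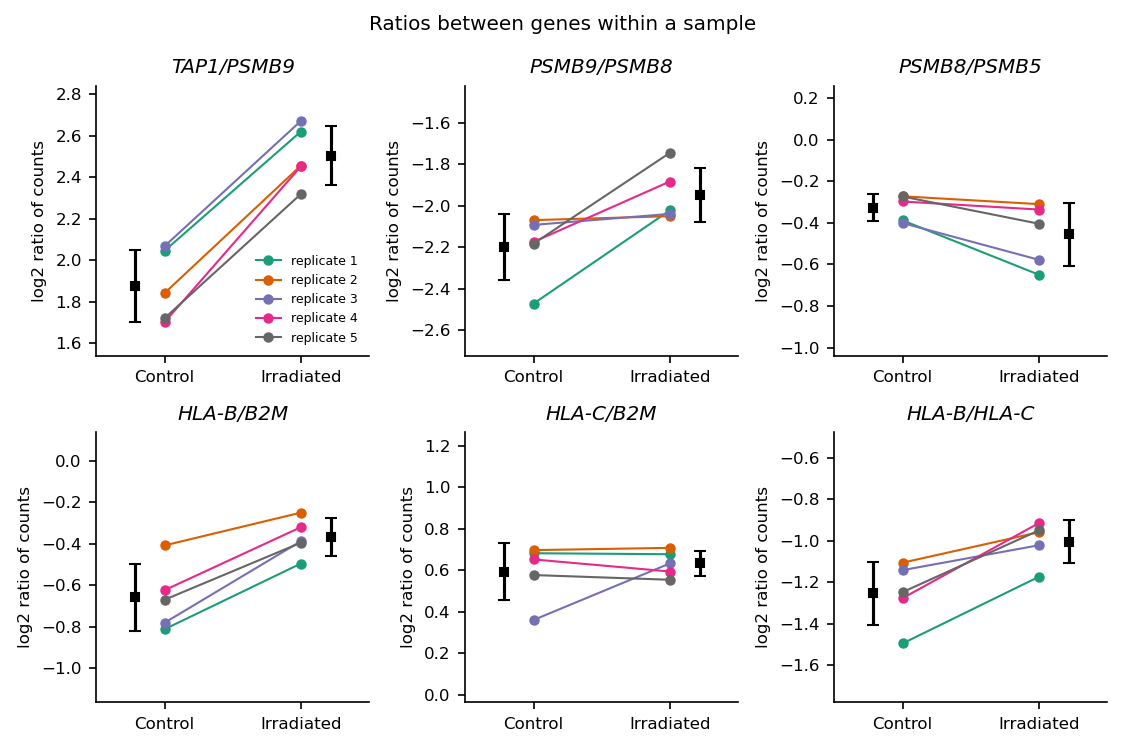
Log2 ratios of counts between pairs of genes within each sample, with lines joining samples of the same replicate number and black squares with bars giving the mean ± SD of 5 samples; vertical axes do not start at 0 and all span the same number of log2 units. TAP1 to PSMB9 and PSMB9 to PSMB8 are the ratios with groups that do not overlap.

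The genes span a wide range of levels when CPM is divided by the length of the merged exons. HLA-C had the highest level, 575.5 ± 85.5 CPM per kilobase in control and 590.1 ± 64.98 in irradiated samples, followed by B2M at 310.0 ± 74.5 and 305.3 ± 31.3. HLA-B came next at 132.9 ± 31.6 and 160.2 ± 22, and HLA-E after it at 89.9 ± 29.2 and 88.5 ± 11.9. This order was the same with the longest transcript as the length. It is limited by the counting of uniquely mapped reads only, whose loss may differ between heavy chain genes. The merged exons also differ, since other genes overlap 47.3% of those of HLA-B and 0% of those of HLA-C. The sample ranges of HLA-C and B2M did not overlap in either group, while those of HLA-B and HLA-E overlapped in control samples only.

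The transporter and immunoproteasome genes lay well below the light and heavy chains other than HLA-F. PSMB8 was at 22.03 ± 1.48 CPM per kilobase in control and 19.6 ± 1.36 in irradiated samples, and TAP1 at 13.1 ± 2.43 and 21.1 ± 1.73, so TAP1 stood below PSMB8 in control samples, with ranges apart, and above it in the mean of irradiated samples, with ranges that overlapped. PSMB9 (5.05 and 5.30 CPM per kilobase) and HLA-F (3.68 and 3.19) overlapped in control samples and lay apart in irradiated samples, but change places when the longest transcript is the length. TAP2 was the lowest at 1.83 ± 0.173 and 2.52 ± 0.268 CPM per kilobase. The constitutive subunits stood above the immunoproteasome subunits in both groups, PSMB5 at 62.0 and 60.4 CPM per kilobase and PSMB6 at 45.1 and 41.4.

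**Figure D3:**
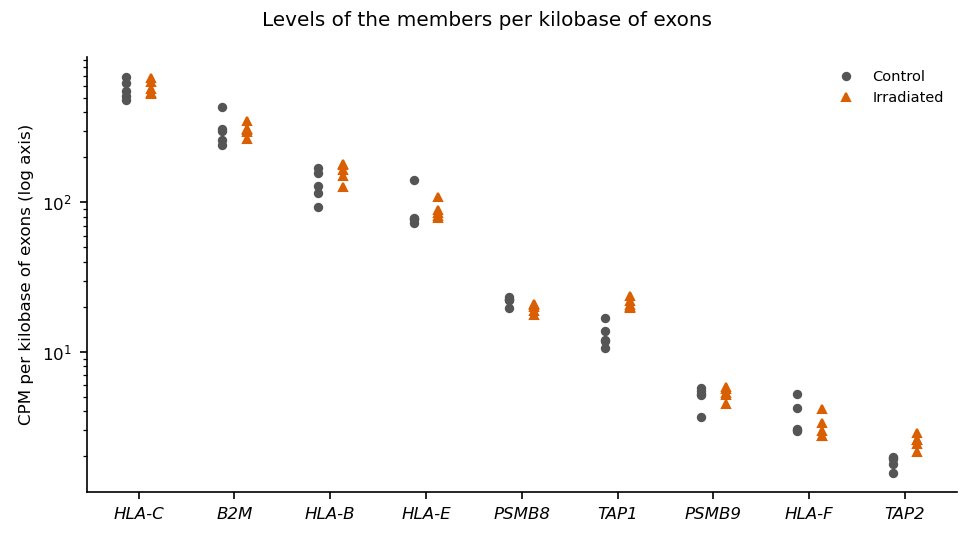
CPM per kilobase of merged exons for the 9 genes, on a log axis, with 1 point per sample for control (grey circles) and irradiated samples (orange triangles). HLA-C, B2M, HLA-B and HLA-E lie above the other 5 genes, and TAP1 moves from below PSMB8 in control samples to its level in irradiated samples.

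The counts for the other genes of the pathway are to be read against the same background of 23.9% of all tested genes called higher and 22.7% called lower. Of the 8 genes listed for peptide trimming and loading, 1 rose and 7 were not called, with a median log2 fold change of 0.10. TAPBP encodes tapasin, which bridges TAP and the empty heavy chain. It stood at 131.9, 159.8, 172.6, 139.6 and 136.2 CPM in control replicates 1 to 5 and at 236.1, 214.8, 243.6, 259.6 and 249.3 CPM in irradiated replicates 1 to 5, groups that did not overlap. The log2 fold change of TAPBP was 0.71 ± 0.082 (SE; edgeR adjusted p = 0.000400). The editor TAPBPL (0.19, adjusted p = 0.0585), the trimming peptidases ERAP1 (0.13) and ERAP2 (-0.01), and the chaperones CALR, CANX, PDIA3 and UGGT1 did not pass, with log2 fold changes from -0.07 to 0.19 over the 7.

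Of the 14 genes of the constitutive 20S core proteasome 0 rose and 3 fell, PSMA5, PSMB1 and PSMB6, by 0.12 to 0.13 on the log2 scale (edgeR adjusted p = 0.0300 to 0.0453). Of all tested genes 22.7% fell, and the median of the 14 was -0.05. The call of PSMB6 was lost without replicates 1, 4 or 5 in turn (adjusted p = 0.103, 0.144 and 0.185) and that of PSMA5 without replicates 2, 4 or 5 (0.0666, 0.128 and 0.139). Without the replicate block both were lost (adjusted p = 0.109 for PSMB6 and 0.0991 for PSMA5 in edgeR, 0.127 and 0.12 in DESeq2), and PSMB6 was also lost in DESeq2 with the block (0.0714) and with a minimum of 1 count (0.0586). PSMB5 (-0.04, adjusted p = 0.513) and PSMB7 (0.06, adjusted p = 0.270) did not pass. PSMA1, PSMA2 and PSMA6 had few counts for core subunits, at 5.70, 1.42 and 8.16 CPM in control samples, and 26.7%, 29.7% and 14.1% of their exons lie under other genes. Of 6 genes for PSMB10, proteasome activators and assembly, 3 rose, where 23.9% of all tested genes did: the activator subunits PSME2, from 67.3 ± 2.98 to 85.0 ± 5.88 CPM (0.33, adjusted p = 0.00219, groups apart), and PSME3 (0.26), and the assembly factor POMP (0.16).

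Among 15 regulators of class I transcription, 7 rose and 3 fell, where 23.9% and 22.7% of all tested genes did, with a median of 0.12. NLRC5, the class I transactivator, fell from 28.7 ± 3.45 to 21.3 ± 3.74 CPM, a log2 fold change of -0.44 ± 0.065 (SE; edgeR adjusted p = 0.00126) that was lower in 5 of 5 pairs. Irradiated replicate 2, at 27.7 CPM, lay within the control range of 25.4 to 32.7 CPM. NFKB1, which encodes the p50 subunit of NF-κB, rose from 46.6 ± 5.13 to 77.2 ± 8.86 CPM (0.73, edgeR adjusted p = 0.000163), and its groups lay apart. The NF-κB subunit RELA (0.21) and the RFX complex gene RFX5 (0.20, lost with a minimum of 1 count at an adjusted p of 0.0518) also rose. So did IRF2 (0.22, edgeR adjusted p = 0.0297, higher in 4 of 5 pairs), CREB1 (0.16, 0.0149) and NFYA (0.12, 0.0482). RFXAP (-0.41, edgeR adjusted p = 0.0411) and NFYB (-0.22, 0.00782) fell. The calls of NFYA and RFXAP were close to the threshold, and RFXAP was low, at 4.02 and 3.04 CPM. IRF1, a direct activator of these promoters, stood at 29.2 ± 2.88 and 31.3 ± 2.91 CPM and did not pass (adjusted p = 0.232).

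Of 10 interferon receptor and kinase genes 5 rose and 1 fell, where 23.9% and 22.7% of all tested genes did, with a median of 0.30. The kinase JAK1 rose from 270.4 ± 27.2 to 408.4 ± 34.6 CPM (0.60, edgeR adjusted p = 0.00103) and the interferon gamma receptor chain IFNGR1 from 39.7 ± 4.18 to 55.1 ± 2.91 CPM (0.48, adjusted p = 0.000481), both with groups apart. IFNAR1 (0.37), JAK2 (0.34) and TYK2 (0.24) rose as well. SOCS1, a feedback inhibitor of JAK kinases, fell from 5.24 ± 0.950 to 3.997 ± 0.288 CPM (-0.38, adjusted p = 0.0112), a call that was lost without replicate 5 (adjusted p = 0.0513). Interferon transcripts themselves were scarce: of 8 genes 2 reached the minimum, IFNE and IFNA1, neither was called, IFNG and IFNL1 to IFNL3 had 0 counts in all samples, and IFNB1 had 7. A count of 0 covers these libraries on day 7 only.

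**Figure D4:**
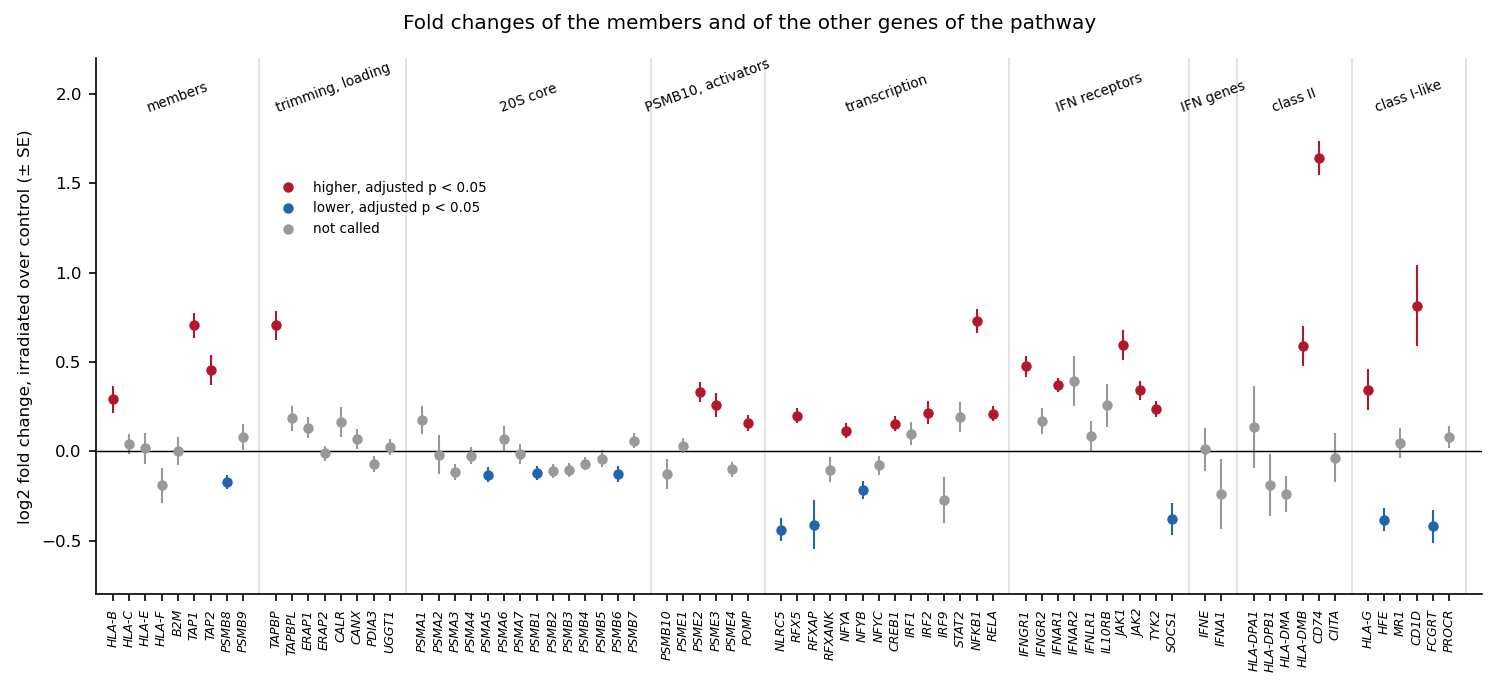
Log2 fold changes (irradiated over control) ± SE from edgeR for the 9 genes and for tested genes of the other lists, coloured by call at an adjusted p-value under 0.05 (red higher, blue lower, grey not called). TAP1, TAP2, TAPBP, NFKB1, JAK1 and CD74 stand among the rises, and NLRC5, RFXAP, SOCS1, HFE and FCGRT among the falls.

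Of 7 genes listed that resemble class I molecules 6 were tested, 2 rose and 2 fell, where 23.9% and 22.7% of all tested genes did, with a median of 0.06. FCGRT, the neonatal Fc receptor, fell from 135.2 ± 28.6 to 100.2 ± 13.9 CPM (-0.42, edgeR adjusted p = 0.00760), and HFE, a regulator of iron uptake, from 21.4 ± 1.14 to 16.4 ± 0.982 CPM (-0.38, adjusted p = 0.00240). Both pair with beta-2-microglobulin. The lipid-presenting CD1D rose from 1.12 ± 0.283 to 1.998 ± 0.570 CPM (0.82, adjusted p = 0.0206), a call lost without replicate 1 (0.0511) or replicate 3 (0.0503). HLA-G was at 0.596 and 0.760 CPM, and its call (0.35, adjusted p = 0.0389) was lost in 10 of 13 alternatives, DESeq2 with the block among them (adjusted p = 0.210) and leaving out replicate 2, 3, 4 or 5 (0.0523 to 0.112).

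The class II pathway presents peptides from outside the cell. Of 12 genes listed 6 were tested, 2 rose and 0 fell, where 23.9% and 22.7% of all tested genes did, with a median of 0.05. CD74, the invariant chain, rose from 11.7 ± 3.01 to 36.3 ± 6.79 CPM (1.64, edgeR adjusted p = 2.78e-05) and HLA-DMB, a subunit of the peptide editor HLA-DM, from 40.0 ± 9.89 to 58.9 ± 7.02 CPM (0.59, adjusted p = 0.00400), both with groups apart. HLA-DRA had 49 counts in all samples, and the class II transactivator CIITA stood at 2.79 ± 0.700 and 2.68 ± 0.187 CPM (-0.03, adjusted p = 0.855).

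Within a group, the genes varied together from sample to sample. Taken as deviations from the group means over the 10 samples, each gene's log2 CPM had a Pearson r with the mean of the 9 of 0.976 for B2M, 0.959 for HLA-C, 0.958 for TAP1 and 0.952 for HLA-B, and of 0.854 for HLA-F, 0.847 for HLA-E, 0.81 for PSMB8 and 0.722 for PSMB9. TAP2 was the exception at 0.489. These values are a description, since each gene is part of the mean and samples share library and scaling. The mean deviation was highest in control replicate 3 (0.355) and irradiated replicate 3 (0.166) and lowest in control replicate 1 (-0.289) and irradiated replicate 1 (-0.159), so the same replicate numbers stood at the ends of both groups.

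**Figure D5:**
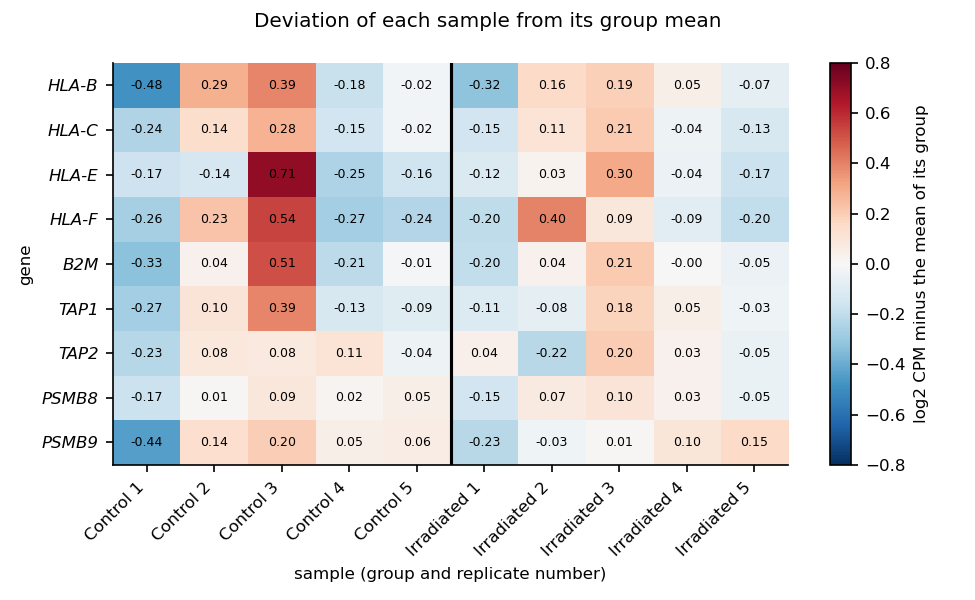
Deviation of each sample's log2 CPM from the mean of its group for the 9 genes, in red where higher and blue where lower. Control replicate 3 is above its group mean for all 9 genes, by 0.71 for HLA-E, and replicate 1 is below for all 9 in control and for 8 in irradiated samples.

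The 5 genes outside the lists and the HLA family whose deviations were most like the mean of the 9 were FAM171A1 (r = 0.973), TERF2IP (0.970), PSMG3 (0.966), NDUFAF4 (0.965) and IL17RB (0.963), over 10 samples and among genes with a mean of at least 1 log2 CPM. With 19006 genes to choose from, high values are found by selection, and no test was made. PSMG3, which encodes a proteasome assembly chaperone, stood at 19.0 ± 2.69 CPM in control and 16.7 ± 1.65 CPM in irradiated samples (log2 fold change -0.19, edgeR adjusted p = 0.0438).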

How the data were processed

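Polyadenylated RNA of RPTEC/TERT1 cells was sequenced. After adapter trimming, the authors ran STAR on GRCh38 (hg38) with its option to count reads on GENCODE genes, and deposited a matrix of raw counts, 1 column per sample. STAR counts only uniquely mapped reads. The counts were treated as unstranded, in which case a read under 2 overlapping genes is assigned to neither. The annotation release is not given in the sources used here. Of 61587 rows, 61369 had a symbol and 56987 the same identifier and version as GENCODE v44, which gave coordinates and exon lengths. Another 46 rows repeat chromosome Y genes and hold 8 counts.

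The main test was edgeR 4.0.16 under R 4.3.3 (TMM, glmQLFit, glmQLFTest) on genes with at least 200 summed counts, with the replicate number as a block, as in the study's model, and Benjamini-Hochberg adjustment over all genes tested (threshold 0.05). The names of the count columns give same-numbered samples a shared B number, and numbers were taken to pair the samples. Deviations from the group means had r of 0.217 to 0.508 for the 5 same numbers and of -0.354 to 0.317 for different numbers. These ranges overlap, so they do not by themselves settle the pairing. The labels do not say that replicates were separate cultures, so p-values measure the spread between these samples only. Counts of any pair of replicates differed by more than sampling noise. SE was derived from the fold change and its F statistic. Ratios between genes within a sample were compared by exact permutation over 252 splits. The test was tested on simulated data.

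Alternatives were DESeq2 1.42.0, limma-voom (limma 3.58.1), upper-quartile scaling, library size only, a minimum of 1 count, filterByExpr, no replicate block, each replicate number left out, and, for ratios, sign flips within pairs and an added 0.5 counts. DESeq2 without the block and the motif GAAGTGAAA were chosen after seeing the data. The genes, lists and tests were chosen with earlier results of these data known. Named are the 9 genes, genes of the lists and the 5 genes whose deviations from group means were most like those of the 9. Promoter windows came from RefSeq (GRCh38.p14). HLA-E has none here. Some list members are counted but not reported by name. Other data of the study were not analysed here. Figures were drawn with matplotlib 3.10.9.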

Additional observations from a re-analysis of the deposited data

Results flagged for a closer look

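Values that stand apart from the other 4 samples of their group were looked for by Dixon's gap over range (above 0.71 for 5 samples) in 82 groups of 5 values. There were 7, where chance gives about 4.1 at 1 in 20. HLA-E stood at 414.8 CPM in control replicate 3, against 213.9 to 231.1 CPM in the other controls. PSMB9 stood at 12.26 CPM in control replicate 1, against 17.23 to 19.13 CPM, and in the same sample the log2 ratio of PSMB9 to PSMB8 was -2.472, against -2.183 to -2.07. NLRC5 stood at 27.74 CPM in irradiated replicate 2, against 18.68 to 21.15 CPM in the other irradiated samples, and HLA-DMB at 71.15 CPM in that sample, against 54.11 to 57.8 CPM. The log2 ratio of HLA-F to B2M was -5.767 in irradiated replicate 2, against -6.276 to -6.134. The log2 ratio of HLA-E to HLA-F was 3.672 in control replicate 2, against 4.059 to 4.205.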

How the results depend on the processing

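TAP1 and TAP2 kept their direction and stayed past the threshold in all 13 alternatives (log2 fold change 0.63 to 0.77, adjusted p up to 0.00221, and 0.38 to 0.54, adjusted p up to 0.0156). The calls of HLA-B and PSMB8 rest on the pairing: without the replicate block HLA-B had an adjusted p of 0.206 and PSMB8 of 0.0595, so 0 genes of the 9 were called lower, as with DESeq2 without the block (0), and 0 to 1 with a replicate number left out. The block changed no other call among the 9. The 2 ratios past the threshold became 0 with sign flips within pairs, the replicate block of this test, and 0 to 0 with a replicate number left out, where the smallest p is 0.0286 with 4 samples a group. Genes that did not pass turned sign: HLA-C with library size only (log2 fold change -0.034), PSMB7 likewise (-0.015), HLA-E with upper-quartile scaling (-0.016), library size only (-0.059), a minimum of 1 count (-0.019), no block (-0.023) and DESeq2 without it (-0.025), and B2M in the same order at -0.030, -0.074, -0.033, -0.022 and -0.024, and at -0.0034 with filterByExpr. With a replicate number left out, HLA-E ran from -0.033 to 0.123, B2M from -0.049 to 0.083, and the log2 ratio to B2M from -0.019 to 0.064 for HLA-C and from -0.027 to 0.040 for HLA-E. Over all genes the calls ran from 3557 to 4660 higher and from 2943 to 5894 lower. Of the values for the 9 genes, 94 stayed on their side with their sign, 7 lost a call and 16 turned sign; the cause was not tested. Without the block 3640 genes were called higher and 3366 lower.

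Each of the 9 genes had at least 1002 counts in every sample, and precision was set by the spread over 5 samples a group. Reads lost to similar HLA sequences or to overlapping exons were not measured.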
